A study of Mus musculus with 6 samples.

Results

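The ETO corepressors and the core-binding factor genes were examined in long-term haematopoietic stem cells of mice lacking Irf8. The set was given as 6 listed genes, namely Runx1t1 (ETO), Cbfa2t2 and Cbfa2t3 (ETO2) of the ETO family, and Cbfb, Runx2 and Runx3 of the core-binding factor. Every probe set that named 1 of these genes and no other was taken. This gave 16 of 34945 single-gene probe sets and 5 of 18193 genes. No probe set in the annotation used here named Runx2, so it has no values below. The genes were selected on log2 values of this same knockout and wildtype comparison, among them the disagreement between the Runx1t1 probe sets. Differences of the listed genes are therefore given as a description, without a test.

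The core-binding factor is a heterodimer in which a RUNX protein contacts DNA through its Runt domain and CBFB, which does not bind DNA itself, strengthens that contact. ETO proteins do not recognise DNA; they are carried to genes by sequence-specific factors, such as E proteins and the TAL1 complex, and recruit NCoR and SIN3 with histone deacetylases. RUNX1T1 is known from acute myeloid leukaemia, in which a chromosomal translocation fuses RUNX1 to it, and CBFA2T3 is known in mice to be needed for the upkeep of haematopoietic stem cells.

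The samples were 3 biological replicates labelled knockout of Irf8, a transcription factor on which the monocyte and dendritic lineages depend, and 3 labelled wildtype. All 6 were untreated bone marrow cells at 3 weeks, sorted as negative for lineage markers and CD48 and positive for c-kit, Sca-1 and CD150. The labels do not say whether 3 weeks is an age, and they name no strain, allele or number of animals per sample. RNA was amplified with a whole-transcriptome kit for small inputs and hybridised to Affymetrix Mouse Genome 430 2.0 arrays, and values are the deposited log2 expression of each probe set.

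The brighter Irf8 probe set read 4.91, 6.39 and 6.50 in knockout replicates 1 to 3, against 4.98, 6.43 and 5.16 in wildtype. The other Irf8 probe set read 4.61, 5.48 and 3.83 in knockout and 4.14, 4.02 and 5.08 in wildtype. In neither were the groups apart. Where the probes lie relative to the deleted part is not given, so directions refer to the arrays as labelled. Array medians lay between 4.85 and 4.96 on the log2 scale. The defining stem cell marker Kit read 8.09 to 10.46 in knockout and 9.38 to 9.76 in wildtype. Procr read 9.38 to 10.21 and 10.24 to 10.77 in the same order, so that its groups narrowly did not overlap. Slamf1, which encodes CD150, ran from 4.71 in knockout replicate 3 and 5.97 in wildtype replicate 1 up to 9.11 in wildtype replicate 2. Knockout replicate 3 correlated least with the other arrays (mean 0.835, across probe sets, which are not independent replicates). With limma and Benjamini-Hochberg adjustment 0 of 34945 probe sets (0%) passed an adjusted p of 0.05, and 1634 (4.68%) had an unadjusted p under 0.05.

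Runx1t1 carried the widest gap of the set, and it appeared in 1 of its 6 probe sets. Probe set 1437784_at read 3.51, 2.94 and 2.85 in the knockout arrays, against 6.62, 8.06 and 8.60 in the wildtype arrays. All knockout arrays lay below all wildtype arrays, with more than 3 log2 units between the highest knockout and the lowest wildtype value. The group means were 3.10 ± 0.36 in knockout and 7.76 ± 1.02 in wildtype (log2, SD, n = 3 each). The knockout minus wildtype difference was -4.66 (SE 0.58 from limma), a 25.2-fold gap on the deposited scale. Counting this one, 4 of 34945 probe sets differed by as much or more in that direction. The 25th percentile over all probe sets was 3.47, 3.43 and 3.59 on the 3 knockout arrays, so that the Runx1t1 value lay just above it in replicate 1 and below it in replicates 2 and 3. The file gives no detection call, so whether any knockout signal was above background was not tested, and the fold is only that of the deposited values.

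The other 5 Runx1t1 probe sets did not show this gap. Probe set 1427640_a_at, of the type that Affymetrix marks as reading several transcripts of 1 gene, read 4.83, 7.82 and 4.96 in knockout and 4.80, 4.84 and 4.82 in wildtype. Its 3 wildtype arrays were almost level, and knockout replicate 2 alone stood apart. The difference of 1.05 (SE 0.82) was 0.08 without that array. Knockout replicate 2 was thus the highest array in this probe set and, at 2.94, among the 3 low arrays in 1437784_at.

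The remaining 4 Runx1t1 probe sets were dim on every array. Their means over all arrays lay at the 23.6, 19.3, 5.67 and 4.03 percentiles of all probe sets, for 1440310_at, 1448785_at, 1444615_x_at and 1443788_at in that order. Probe set 1440310_at read 3.43, 3.16 and 3.67 in knockout and 3.51, 3.50 and 3.90 in wildtype. Probe set 1448785_at read 3.44, 2.86 and 3.67 in knockout and 3.67, 3.23 and 2.91 in wildtype. The groups overlapped in both. Probe set 1444615_x_at, of a type open to cross-hybridisation, read 2.56, 2.14 and 2.27 in knockout and 3.37, 2.74 and 2.39 in wildtype, a difference of -0.51 (SE 0.26). The dimmest, 1443788_at, ran from 2.28 to 2.61 in knockout and from 2.36 to 2.67 in wildtype. Differences of these 4 probe sets were between -0.51 and 0.05, and values this low leave little room for a lower reading. When the 6 probe sets were averaged on each array, the Runx1t1 difference was -0.72.

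**Figure D1:**
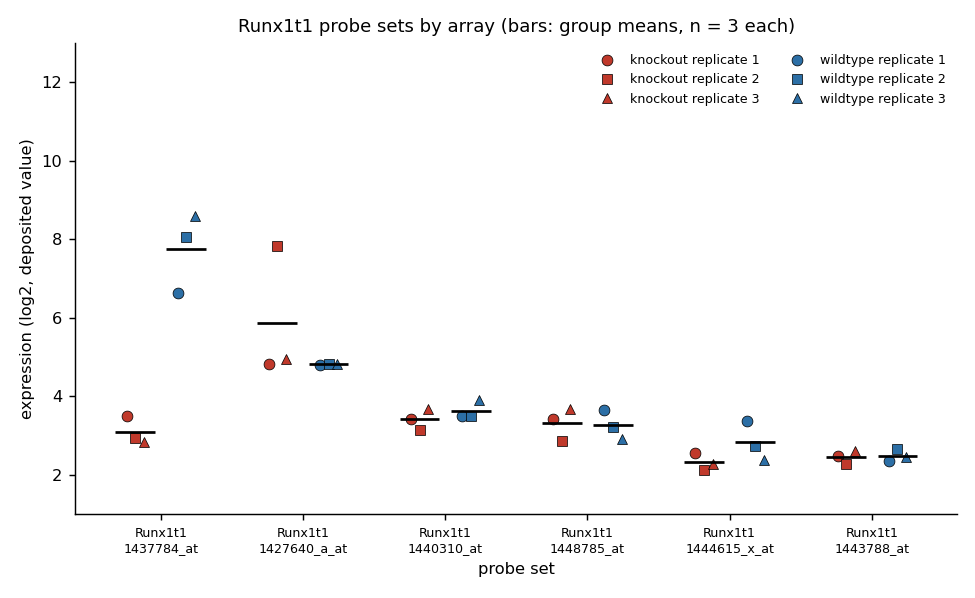
Log2 expression (vertical axis) of the 6 Runx1t1 probe sets (horizontal axis), with knockout in red left of wildtype in blue, a symbol for each replicate and a bar at each group mean. Only 1437784_at has groups that do not overlap, at 2.85 to 3.51 in knockout and 6.62 to 8.60 in wildtype, and only 1427640_a_at has a single high array, knockout replicate 2 at 7.82.

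Cbfa2t3 encodes ETO2, the family member that sits in the TAL1 complex of blood cells, and all 4 of its probe sets had a difference below 0. The brightest, 1438705_at, read 10.13, 10.69 and 10.76 in knockout, against 10.57, 11.24 and 11.22 in wildtype. The groups overlapped only through wildtype replicate 1, and the difference was -0.49 (SE 0.30; -0.29 without knockout replicate 1). Probe set 1440963_at read 5.74, 6.86 and 5.80 in knockout, against 7.10, 6.94 and 7.87 in wildtype. Here the groups did not overlap, narrowly so between knockout replicate 2 and wildtype replicate 2 (difference -1.17, SE 0.56).

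Probe set 1440964_s_at of Cbfa2t3, of a type that may read more than 1 gene, was spread within the knockout group. It read 9.32, 7.17 and 6.50 in knockout, against 9.39, 9.24 and 8.51 in wildtype, so that knockout replicate 1 lay within the wildtype range. The difference was -1.38 (SE 0.81), -0.80 without knockout replicate 3 and -2.21 without knockout replicate 1. The fourth probe set, 1418582_at, read 8.31, 8.06 and 8.50 in knockout and 7.96, 8.40 and 8.56 in wildtype. It showed nearly equal groups (difference -0.02, SE 0.45), and its sign turned to 0.10 without knockout replicate 2, 0.03 without wildtype replicate 2 and 0.11 without wildtype replicate 3. The 4 differences of this gene thus ran from -1.38 to -0.02.

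Cbfa2t2, which encodes the ETO family member MTGR1, varied more between arrays of a group than between groups. Its brightest probe set, 1434757_at, read 8.38, 6.99 and 6.40 in knockout and 6.69, 8.38 and 6.36 in wildtype. Each group held 1 array near 8.38 and others lower, and the difference was 0.12 (SE 0.80). That sign was not stable, at -0.45 without knockout replicate 1, -0.11 without wildtype replicate 1 and -0.28 without wildtype replicate 3, and it was 0.25 and 0.54 without knockout replicates 2 and 3 and 0.74 without wildtype replicate 2.

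The other Cbfa2t2 probe sets went opposite ways. Probe set 1441615_at read 3.31, 7.64 and 8.27 in knockout, against 5.76, 3.85 and 3.85 in wildtype. The 2 highest arrays were knockout replicates 2 and 3 and the lowest was knockout replicate 1, which gave a difference of 1.92 (SE 1.35), 3.47 without knockout replicate 1 and 0.98 without knockout replicate 3. Probe set 1456416_at read 6.32, 6.72 and 5.69 in knockout, against 8.43, 9.78 and 4.51 in wildtype. Wildtype replicate 3 was below every knockout array while the other wildtype arrays were above them, and the difference of -1.33 (SE 1.33) was -2.86 without wildtype replicate 3 and -0.23 without wildtype replicate 2.

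Cbfb, the shared non-DNA-binding subunit, had 1 probe set and read bright on every array. Probe set 1460716_a_at gave 11.53, 11.33 and 11.57 in knockout, against 11.00, 11.52 and 10.17 in wildtype. The knockout arrays were close together and wildtype replicate 2 lay among them, whereas wildtype replicates 1 and 3 were lower. The difference was 0.58 (SE 0.35), and it was 0.22 without wildtype replicate 3 and 0.89 without wildtype replicate 2.

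Runx3 encodes the RUNX protein best known from T cell and natural killer cell development. Probe set 1440275_at read 9.18, 9.25 and 8.86 in knockout and 7.71, 9.42 and 9.13 in wildtype. Only wildtype replicate 1 stood below the rest, and the difference of 0.34 (SE 0.56) became -0.18 without it and 0.68 and 0.53 without wildtype replicates 2 and 3. Probe set 1421467_at read 5.69, 8.50 and 6.51 in knockout and 9.60, 6.90 and 7.05 in wildtype. In this probe set wildtype replicate 1 was instead the highest array, and the difference of -0.95 (SE 1.04) was -0.08 without it and -0.35 without knockout replicate 1, but -1.75 without knockout replicate 2 and -1.43 without wildtype replicate 2. The pair of Runx3 probe sets thus placed the same array at opposite ends, and their mean per array differed by -0.31. Markers of T and NK cells, the cells in which Runx3 is best known, were mostly dim: 1 of 10 measured markers lay above the median gene, and the mean of the list was 4.67 to 5.11 in knockout and 4.61 to 4.81 in wildtype.

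**Figure D2:**
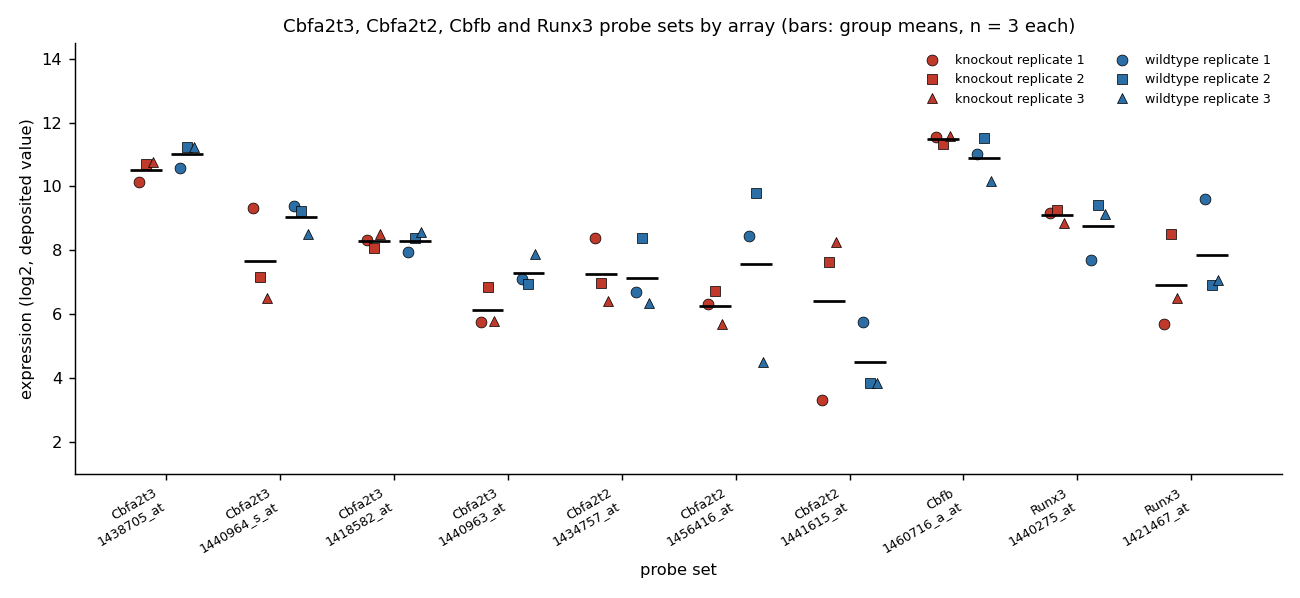
Log2 expression (vertical axis) of the 10 probe sets of Cbfa2t3, Cbfa2t2, Cbfb and Runx3 (horizontal axis), drawn as for Runx1t1 with knockout in red left of wildtype in blue and bars at the group means. Only 1440963_at of Cbfa2t3 has groups that do not overlap, and 1441615_at of Cbfa2t2 spreads from 3.31 to 8.27 within knockout.

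Across the 16 probe sets 2 were lower in knockout without overlap, 1 of Runx1t1 and 1 of Cbfa2t3, and 0 were higher without overlap. Over all single-gene probe sets the groups failed to overlap in 10.9%, with 4.48% lower and 6.45% higher in knockout. Differences were below 0 in 10 of the 16, against 44.6% of all single-gene probe sets. The median of the 16 differences was -0.12, beside 0.06 over all of them. These counts describe genes listed with the same comparison in view, and nothing is read from them. Within a gene the differences spanned -4.66 to 1.05 for Runx1t1, -1.33 to 1.92 for Cbfa2t2, -1.38 to -0.02 for Cbfa2t3 and -0.95 to 0.34 for Runx3.

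**Figure D3:**
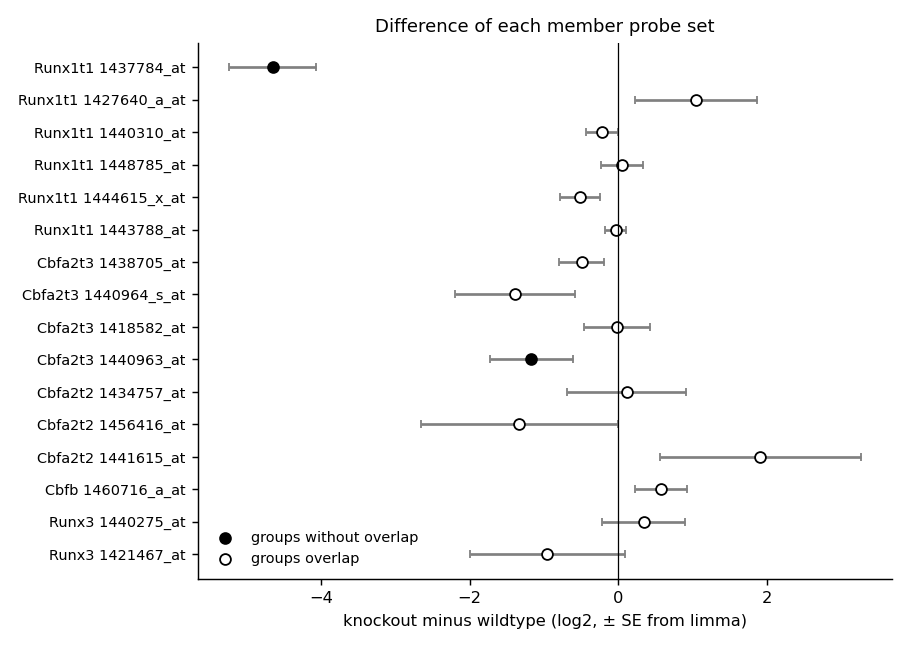
Knockout minus wildtype difference (horizontal axis, log2, bars ± SE from limma) of each of the 16 probe sets (vertical axis), filled where the groups do not overlap. Runx1t1 1437784_at lies at -4.66, apart from the other 15 probe sets, which lie between -1.38 and 1.92.

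RUNX genes are known to carry recognition motifs for RUNX proteins in their own distal promoters. The promoters of Runx3 and Runx2 are shown because they hold the core motif TGTGGT that the factor recognises, and the second Runx3 promoter because it does not. Sequences are from RefSeq (GRCm38.p6), from 250 bases before to 50 after the annotated start, 5′ to 3′ on the strand of the gene. Capitals mark TGTGGT read on either strand, so that ACCACA is the same motif on the opposite strand.
Runx3, first promoter, chr4:135120395-135120694, plus strand: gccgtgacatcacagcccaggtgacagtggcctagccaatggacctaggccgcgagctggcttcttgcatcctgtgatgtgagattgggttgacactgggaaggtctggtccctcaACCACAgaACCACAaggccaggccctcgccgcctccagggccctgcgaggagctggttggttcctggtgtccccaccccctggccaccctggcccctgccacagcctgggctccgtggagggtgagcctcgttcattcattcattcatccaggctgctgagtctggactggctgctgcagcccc
Runx3, second promoter, chr4:135152295-135152594, plus strand: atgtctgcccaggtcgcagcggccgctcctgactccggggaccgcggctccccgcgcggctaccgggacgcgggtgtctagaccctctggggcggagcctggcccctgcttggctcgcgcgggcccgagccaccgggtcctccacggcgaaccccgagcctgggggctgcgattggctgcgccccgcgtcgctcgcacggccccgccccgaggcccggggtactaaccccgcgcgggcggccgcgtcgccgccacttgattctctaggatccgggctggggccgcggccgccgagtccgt
Runx2, chr17:44814578-44814877, minus strand: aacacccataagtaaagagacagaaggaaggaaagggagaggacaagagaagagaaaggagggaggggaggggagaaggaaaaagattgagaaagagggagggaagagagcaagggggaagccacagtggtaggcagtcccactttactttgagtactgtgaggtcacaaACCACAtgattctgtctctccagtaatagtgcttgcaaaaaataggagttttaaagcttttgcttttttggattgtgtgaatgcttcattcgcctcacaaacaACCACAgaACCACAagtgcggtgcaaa

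The table held promoters for 5 of the 6 genes, 7 in all, and Runx1t1 had none there. The motif TGTGGT occurred 3 times in the Runx2 promoter and 2 times in the first Runx3 promoter. The other 5 promoters, those of Cbfa2t2, Cbfa2t3 and Cbfb and the second of Runx3, held 0 copies. Among all 32851 promoters of this length 16.8% held at least 1 copy. In both Runx2 and Runx3 a pair of motifs stood in tandem as ACCACANNACCACA, a spacing searched for, on both strands, after these sequences had been read, and each tandem holds 2 of the TGTGGT matches. It was present in 7 of the 32851 promoters (0.0213%), 1 each of Runx1, Runx2 and Runx3 and 4 of other genes. In Runx3 the tandem lay 134 bases before the annotated start. These are matches of letters, and the arrays do not tell the promoters of a gene apart.

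RUNX1, the main RUNX protein of stem cells, was not a listed gene but is the partner of Cbfb here and the other partner in the leukaemic fusion. Its brightest probe set read 10.51, 10.48 and 10.63 in knockout, against 10.65, 10.33 and 10.88 in wildtype, a difference of -0.08 (SE 0.25, limma adjusted p = 0.969). In this probe set the groups differed by less than the spread of the wildtype arrays. Its 6 probe sets had differences from -0.72 to 1.00, and the groups overlapped in all 6.

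Genes that work with these proteins were taken from 6 fixed lists, and 0 genes of any list passed limma's adjusted p over all probe sets. The smallest adjusted p among them was 0.902. Each gene stood by its brightest probe set. Over all 18193 genes so measured, 0 passed (0%), 4.29% had an unadjusted p under 0.05, the median difference was 0.07, 43.4% were below 0, and the groups did not overlap in 6.67% (higher in knockout) and 4.25% (lower).

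The 12 measured subunits of the NCoR and SIN3 corepressors, the machinery that ETO proteins recruit, had a median difference of -0.15, with 4 above 0 and 8 below. Hdac3, the catalytic deacetylase of NCoR, read 8.87 ± 0.62 in knockout and 8.25 ± 0.59 in wildtype (SD, n = 3 each), a difference of 0.61. Sin3a, a scaffold, read 8.26, 11.15 and 8.11 in knockout and 11.61, 9.16 and 9.97 in wildtype, overlapping widely (-1.07, SE 1.00; 1.34 and -0.82 in its other probe sets). Tbl1x, a subunit that binds histones, was the 1 gene of the list without overlap, at 7.32, 9.89 and 10.18 in knockout, against 10.52, 10.79 and 10.62 in wildtype. Knockout replicate 1 lay farthest from the rest, the difference was -1.51 (SE 0.77), and 2 other Tbl1x probe sets gave -0.22 and 1.06. The deacetylase Hdac1 differed by -0.76.

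The 14 TAL1 and E protein complex genes, to which ETO2 is tethered, were evenly split, with 7 above 0, 7 below and a median of 0.02. Among them Tal1 differed by 0.69, the bridging adaptor Ldb1 by 0.44, the adaptor Lmo2 by 0.09, Gata2 by -0.23, and the E proteins Tcf3 and Tcf12 by 0.68 and -0.90. The standard errors were 0.72 for Tal1, 0.56 for Tcf3 and 0.87 for Tcf12. Other probe sets gave 0.20 for Gata2 and between -0.84 and 2.94 for Tcf12. Gfi1b, a transcriptional repressor that works within the erythroid and platelet lineages, was the 1 gene without overlap. It read 7.72, 7.91 and 9.12 in knockout, against 10.42, 10.30 and 10.74 in wildtype. The difference was -2.24 (SE 0.48, limma adjusted p = 0.902).

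The 7 sequence-specific repressors reported to bind ETO proteins, which also include Gfi1b, had a median of -0.27, with 3 above 0 and 4 below. Gfi1 differed by -0.60 (SE 1.20), Zbtb16, the PLZF repressor, by 0.22 and Bcl6 by 0.60. The 16 measured genes of RUNX1 and RUNX cofactors had a median of -0.07, with 7 above 0 and 9 below. Kmt2a, a histone methyltransferase, differed by -0.96 (SE 0.55; 0.44 in another probe set), the corepressors Tle3 and Tle4 by -1.48 and -0.60, the acetyltransferase Ep300 by 0.06, and Spi1, which encodes PU.1, by 1.09 (SE 0.76). Ets1, which binds DNA together with RUNX1, was the 1 member without overlap, at a difference of -0.56, and its 3 other probe sets gave -0.14, -0.37 and 1.62, the last with knockout replicate 3 at 8.19 and the other knockout arrays at 4.10 and 4.43. The sign was also not shared by all probe sets for Tle3 (-0.90 to 0.14 in 3 others), Tle4 (0.85 and 1.30) and Zbtb16 (-0.17 and 1.71), nor for Bcl6 (-0.19 in another).

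The 21 measured genes reported as core-binding factor targets in blood cells had a median of 0.16, with 14 above 0 and 7 below, and 2 were higher in knockout without overlap. Cebpa, a transcription factor of granulocyte fate, read 7.46, 9.89 and 5.70 in knockout, against 3.79, 3.60 and 3.47 in wildtype (difference 4.06, SE 1.01, limma adjusted p = 0.902). Tbx21, a factor of T and NK cells, differed by 0.53 at values of 2.71 to 3.76, in the dim range. The granule genes Mpo and Elane differed by 3.40 (SE 2.21) and 2.41 (SE 1.74), with overlapping groups. Csf1r, the receptor for macrophage colony-stimulating factor, read 3.40, 9.82 and 3.78 in knockout and 3.22, 8.26 and 6.10 in wildtype, so that single arrays of both groups were high (difference -0.19; 0.20 and 0.55 in other probe sets). Itga2b differed by 0.18 and Cd4 by -0.12 (0.35 in another probe set). Some of these targets, among them Mpo, Elane, Csf1r, Itga2b and Cd4, are also on the marker lists below. The target list and the marker lists are therefore not separate observations, and Mpo and Elane are among the neutrophil markers.

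The 8 measured osteoblast and cartilage genes, among them targets of RUNX2, had a median of 0.30, with 6 above 0. Sp7, the osteoblast factor downstream of RUNX2, was dim on all arrays, at 3.11 to 3.26 in knockout and 2.99 to 3.64 in wildtype. Col1a1 read 6.36, 6.15 and 9.38 in knockout and 5.96, 8.57 and 7.38 in wildtype, a difference of -0.01, and its other probe set gave -2.01. Alpl, alkaline phosphatase, was the 1 gene without overlap, at values of 4.83 to 5.42, and its difference (0.294) was smaller than its SE (0.299). Mmp13, a collagenase, differed by 0.31 at values under 2.7.

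**Figure D4:**
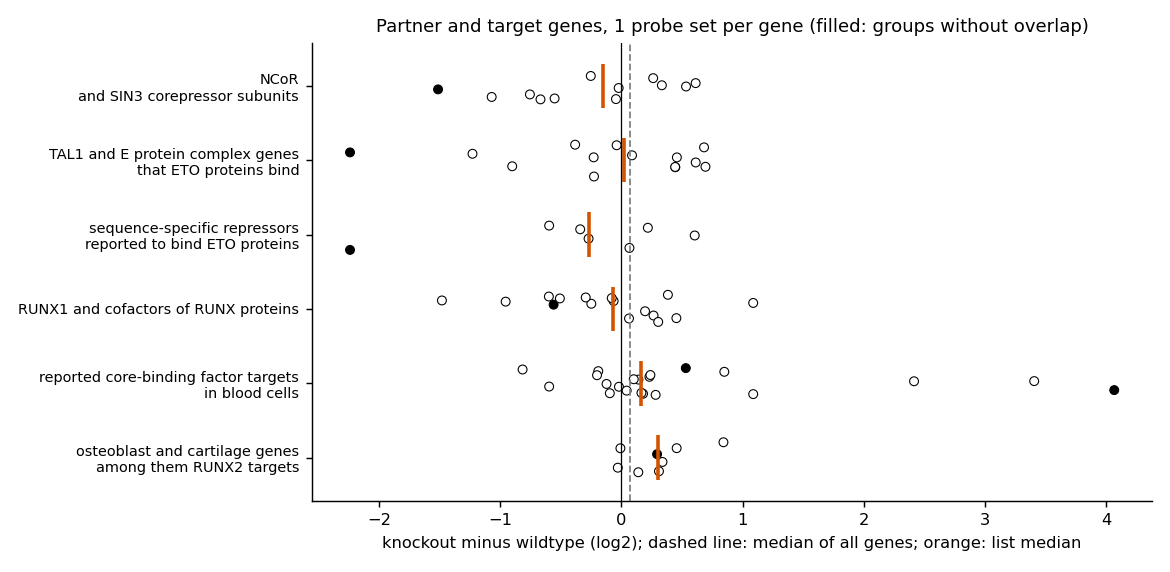
Knockout minus wildtype difference (horizontal axis, log2) of each gene in the 6 partner and target lists (vertical axis), 1 probe set a gene, filled where groups do not overlap, with an orange bar at each list median and a dashed line at the median of all genes, 0.07. List medians lie between -0.27 and 0.30, and Gfi1b at -2.24 and Cebpa at 4.06 are the farthest points.

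Markers of other cell types are given beside the Runx1t1 difference, and 0 genes of the 8 marker lists passed limma's adjusted p over all probe sets. All 12 measured neutrophil markers had a difference above 0, and 4 of them were higher in knockout without overlap, where 6.67% of all genes were. The mean of the neutrophil list was 8.54, 8.34 and 11.04 in knockout and 7.32, 7.54 and 6.47 in wildtype. The 6 measured erythroid markers averaged 4.32, 5.00 and 5.30 in knockout and 6.27, 5.68 and 5.43 in wildtype, with 5 of 6 below 0 and 1, Klf1 (-2.21), lower in knockout without overlap, where 4.25% of all genes were. Knockout replicates 1 and 2 had Runx1t1 1437784_at values of 3.51 and 2.94, and the difference was -4.53 without replicate 3. Their neutrophil means, though more than 2 log2 units below that of replicate 3, also lay above the neutrophil means of all wildtype arrays. Leaving out replicate 3 therefore does not separate Runx1t1 from the neutrophil markers. Stem cell markers averaged 9.23, 8.69 and 7.43 in knockout and 8.84, 9.17 and 8.23 in wildtype. Differences were above 0 in 4 of the 10 measured and below 0 in 6. Procr (-0.75) was the 1 lower in knockout without overlap, where 4.25% of all genes were. The part of these markers in the differences was not tested, and in such samples fewer cells of a type and less RNA per cell cannot be told apart. Ranges of list means overlapped for the B cell markers (4.66 to 5.30 in knockout and 5.03 to 5.31 in wildtype), the monocyte and dendritic cell markers (4.93 to 5.83 and 4.84 to 5.75), the megakaryocyte markers (7.56 to 8.10 and 7.61 to 8.89) and the stromal and endothelial markers (4.99 to 6.20 and 5.20 to 5.99). Single genes of lists with overlapping means were still higher in knockout without overlap, namely 2 of 9 monocyte and dendritic cell markers, Flt3 (2.45) and Itgax (0.43), and 2 of 10 T and NK cell markers, Ncr1 (0.42) and Zap70 (0.29). These, Klf1 and Procr were singled out after their values were seen. Itgax, Ncr1 and Zap70 lay below the median gene level of 5.81 on every array. The Zap70 difference (0.288) was smaller than its SE (0.295 from limma).

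**Figure D5:**
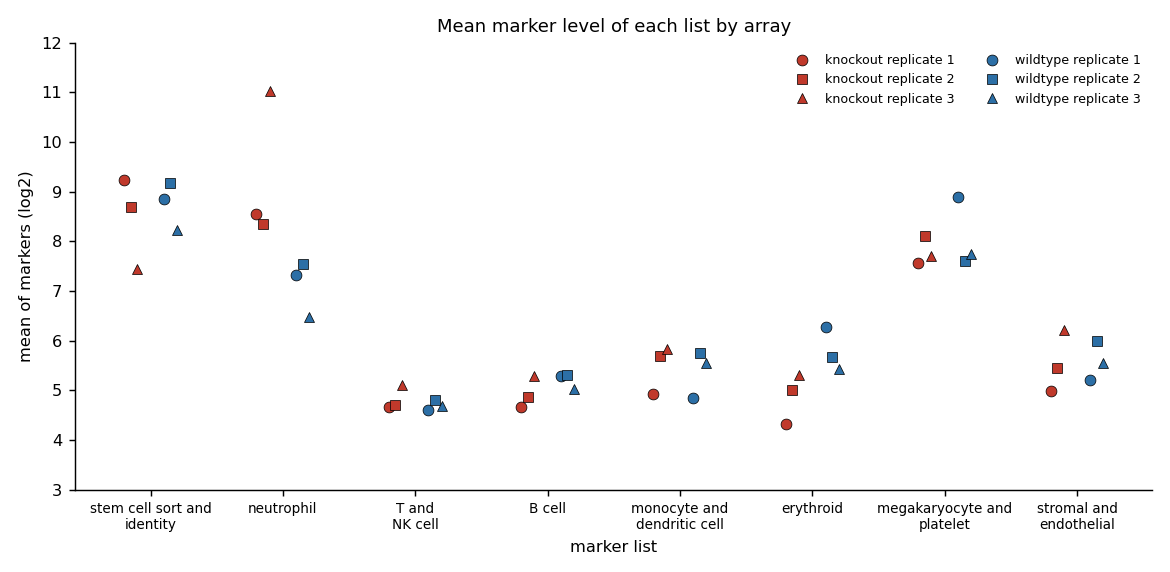
Mean log2 level (vertical axis) of the markers of each cell type list (horizontal axis) on each array, with knockout in red left of wildtype in blue. Neutrophil means are 8.34 to 11.04 in knockout and 6.47 to 7.54 in wildtype, while T and NK cell means stay between 4.61 and 5.11 on all arrays.

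The genes whose pattern over the 6 arrays was most like that of each listed gene were taken by Pearson correlation among genes above the median level, as a description over 6 arrays that share their groups. For Runx1t1 1437784_at they were Nr2c2ap (r = 0.982) and Aig1 (r = 0.980). Nr2c2ap read 6.78, 6.18 and 6.37 in knockout, against 8.67, 9.21 and 8.96 in wildtype, and Aig1 read 5.67, 5.41 and 5.88, against 7.15, 7.67 and 7.60. The groups are apart in all 3 genes, so that these correlations largely restate the separation of the groups. For Cbfa2t3 they were Paqr8 (0.989) and Aasdhppt (0.980), for Cbfa2t2 Pogk (0.990) and Fbxo31 (0.982), for Cbfb Fam241a (0.988) and Plk4 (0.980), and for Runx3 Mycbp2 (0.980) and Sbk1 (0.975).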

How the data were processed

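The authors deposited log2 values, a single one for each probe set on each array. The submitters' processing notes name RMA, Affymetrix Expression Console and Partek with no versions; settings, genome build and the authors' own test are not given there. In RMA the background is corrected, arrays are normalized and probes summarised, and differences of dim probe sets come out compressed. Of 45037 probe sets 34945 named 1 gene in the platform annotation, 932 several and 9160 none.

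Knockout was compared with wildtype over all single-gene probe sets by lmFit and eBayes (mean-variance trend) of limma 3.58.1 in R 4.3.3. Adjusted p means Benjamini-Hochberg over all 34945, with a threshold of 0.05. For gene lists, a gene was represented by its probe set of highest mean. Groups came from the sample titles, and the number of arrays limits the precision. The labels speak of biological replicates but not of animals, so p-values set group differences only against the spread between these samples. How far that is a spread between animals is not known. The listed genes, the 6 partner lists, the 8 marker lists and the tests were chosen with earlier results of these data known. Named genes are all listed genes, preset partners, up to 2 genes per partner list with the smallest unadjusted p, and the 2 genes most correlated with each listed gene. Ets1 falls outside this rule and was named after its values were seen. Some preset partners are not reported here. Other probe sets were added for genes named, after their values were seen. The fit was tested on simulated data. Alternatives covered moderation, array weights, probe set choice, level filter, scaling, replicate block and each array left out. Tables and figures used Python 3.11.15, pandas 2.3.3 and matplotlib 3.10.9.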

Additional observations from a re-analysis of the deposited data

How the results depend on the processing

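The count of 0 probe sets past the adjusted p of 0.05 in limma (1634 at an unadjusted p under 0.05) was also 0 under every alternative tried except the mean of probe sets per gene, where 1 gene passed, Zfp229 (difference -2.98, adjusted p = 0.0470), singled out after its value was seen. Between 1354 and 2127 probe sets had an unadjusted p under 0.05 when single arrays were left out, with 0 past the adjusted threshold each time. With that same mean the Runx1t1 difference was -0.72 in place of -4.66, because the mean includes 5 probe sets without the gap, and Runx3 differed by -0.31 in place of 0.34. Leaving out each array in turn, the Runx1t1 1437784_at difference ran from -5.22 to -4.24, and that of Cbfa2t3 1438705_at from -0.71 to -0.29. The ranges were -0.45 to 0.74 for Cbfa2t2, 0.22 to 0.89 for Cbfb and -0.18 to 0.68 for Runx3, each in the brightest probe set. Runx1t1 1448785_at and 1443788_at, both dim, also changed sign when single arrays were left out, between -0.13 and 0.28 and between -0.11 and 0.06. The 6 partner lists had 0 members past the threshold under every alternative, and the medians of the TAL1, repressor and RUNX cofactor lists changed sign when single arrays were left out. Same-numbered arrays did not deviate together (correlations of -0.02, 0.01 and -0.001 across probe sets), so the numbers were not taken as pairs. With the replicate block 0 probe sets passed, 1534 had an unadjusted p under 0.05, and the differences were the same by construction. Probe sets without detection calls limit what can be said of the dim Runx1t1 signals.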
